A study of Mus musculus with 4 samples.

Results

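Genes of the chemokine, interleukin and tumour necrosis factor (TNF) families were examined in mouse liver on Illumina expression arrays. The families were taken by name from the platform annotation, as every probe whose gene symbol begins with Tnf, or with Ccl, Ccr, Cxcl, Cxcr or Il followed directly by a digit. This gave 230 of the 25697 probes on the arrays, for 164 genes. The knockout group consisted of 2 liver samples labelled Shp2hep-/-, from albumin-Cre-positive mice. The control group consisted of 2 liver samples labelled wild type and Shp2Floxed/Floxed. All 4 samples are described as from mice 2 months old that were not fasted; strain and sex are not stated in the labels. Shp2, encoded by Ptpn11, is a tyrosine phosphatase that relays signals from growth factor and cytokine receptors. The albumin promoter drives Cre in hepatocytes, and how far other cells of the liver keep the floxed gene was not measured here. The 4 arrays lay on 1 BeadChip, and array position cannot be told apart from genotype. Whether the 2 samples of a group are separate animals is not stated. A p-value here rests on the spread between those samples, with each gene's variance moderated by that of the other rows. It cannot be taken to cover the spread between animals.

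Chemokines are small secreted proteins that guide white blood cells by binding G-protein-coupled receptors. Their names follow the spacing of conserved cysteines (CC or CXC), with Ccl and Cxcl for ligands and Ccr and Cxcr for receptors. Interleukins are secreted signals that act through paired receptor chains, many of them coupled to JAK kinases and STAT factors and some to the MyD88 adaptor. TNF ligands bind receptors of the Tnfrsf family, which turn on the transcription factor NF-kB or cell death. In liver most ligands come from Kupffer cells, endothelium and white blood cells, while hepatocytes carry several of the receptors and make a few chemokines.

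Scanner intensity was background-corrected, normalized across arrays and put on a log2 scale. A probe counted as above background on an array if its detection p-value, Illumina's comparison with negative control beads, was under 0.05. All arrays had a mean intensity of 1186.5 units, because they had been scaled before deposit, with medians of 242.2 and 256.6 in knockout and 251 and 262 in control liver. Ptpn11 had log2 values of 11.38 and 11.56 in knockout and 12.75 and 12.85 in control liver (difference −1.33, SE 0.18, adjusted p = 0.0599). These values come from its probe of highest mean. Ptpn11 has 4 probes on the arrays, and 2 of the others were above background in control liver. Their differences are not given, and whether any of the probes lies in the floxed part was not analysed here. Of 10 hepatocyte markers on the arrays, 9 were above background on at least 2 arrays and 1, Tat, was not. Among the 9, the probe of Alb was close to background. It had log2 values of 5.75 and 6.05 in knockout and 5.90 and 5.58 in control liver, where 1 array was above background. In bulk tissue, fewer cells of a type and less RNA per cell cannot be told apart, and this holds for each gene below.

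Most of the family probes gave no signal over background in liver. On the knockout arrays 84 and 78 of the 230 were above background, and on the control arrays 80 and 73. A total of 83 probes (36.1%) passed on at least 2 of the 4 arrays, as did 47.5% of all probes. No array detected 124 of the family probes (53.9%), against 44.9% of all probes. The TNF-induced genes, the interleukin receptors and the chemokine ligands were most often measured, with 58.3%, 45.8% and 44.7% of their probes passing. Chemokine receptors and TNF ligands were least often measured, with 2 of 20 and 2 of 15 probes. Each of the 64 genes with a passing probe was represented by its probe of highest mean, and 100 genes could not be tested.

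**Figure D1:**
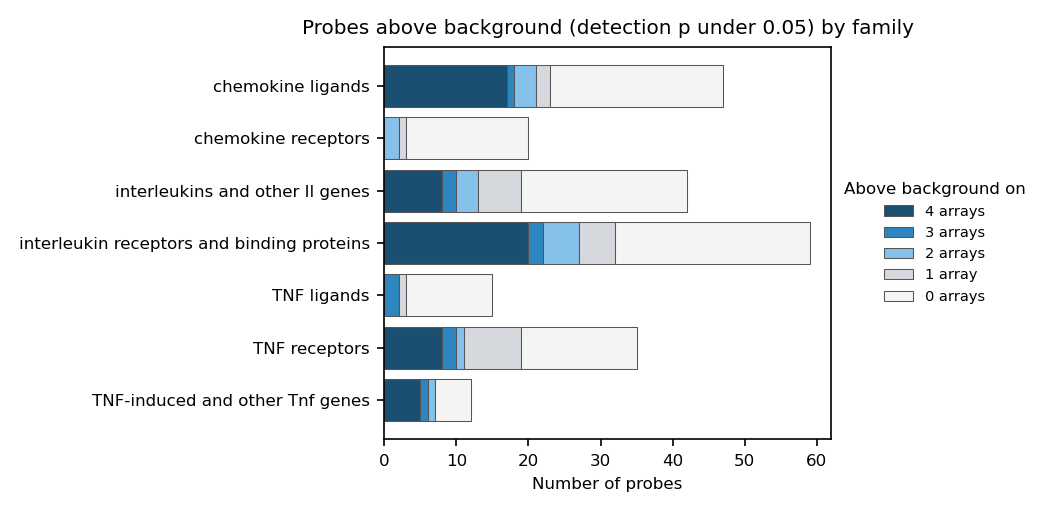
Number of probes (x axis) in each of 7 groups of genes, coloured by the number of arrays on which the probe was above background. Chemokine ligands (17) and interleukin receptors (20) have the most probes above background on all 4 arrays; no chemokine receptor or TNF ligand probe was above background there.

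Several signals that define inflammation were among the unmeasured genes. Tnf itself had scanner intensities of 202.1 and 214.1 units in knockout and 181.3 and 224.5 in control liver, and was above background on no array. The monocyte chemokine Ccl2 stood at 206.9 and 229 in knockout and 239.6 and 232.4 in control liver, also on no array above background. The same held for the neutrophil chemokine gene Cxcl2, for Ccr2, the receptor of Ccl2, and for Il10, which encodes an interleukin that restrains inflammation. Il1a was above background on 1 knockout array. Of the 2 probes of Tnfrsf1b, the second TNF receptor, 1 was above background on 1 knockout array and the other on 1 control array. For these untested genes a difference was not detectable with these arrays, which does not show that the transcripts were absent.

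No family gene was called changed between knockout and control liver. By limma, adjusting p-values over 9311 tested rows by the Benjamini-Hochberg method, 0 of the 64 genes had an adjusted p under 0.05, where 0.793% of all 8579 tested genes were called. The lowest adjusted p was 0.0949, for Tnfrsf19. At an unadjusted p under 0.05 there were 10 of 64 (15.6%), against 16.4% of all tested genes. Of these, 7 were higher in knockout, where the share over all genes was 9.4%, and 3 were lower, where it was 6.96%. The share at that level is near the share among genes in general. Of the 64 genes, 4 (Ccl4, Il1b, Il19 and Tnfrsf22) were represented by a probe that passed the detection filter only through the knockout arrays and so had to differ, and 3 of them are among the 7. Detection on both knockout arrays and neither control array held for 1.74% of family probes and 1.08% of all probes. The reverse held for 0 family probes and 0.62% of all probes. Both knockout arrays lay above both control arrays for 16 of the 64 genes (25%; 24.9% of all genes). They lay below them for 13 (20.3%; 23.6% of all genes). The count of called family genes depended on the processing: it was 4 without background correction, 2 with an offset of 50 and 5 with an intensity trend in the variance. The genes concerned were Tnfrsf19, Il17rb, Il13ra1, Ccl9 and Il10rb.

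The median difference, knockout minus control on the log2 scale, was −0.02 over the 64 genes and 0.00 over all tested genes. The quartiles of the differences ran from −0.32 to 0.29 for the family and from −0.23 to 0.27 for all genes. Differences of at least 2-fold were fitted for 7 family genes (10.9%), against 5.15% of all genes, and the median SE was also larger, 0.28 against 0.21. For 30 of the 64 genes the difference was smaller than its own SE.

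**Figure D2:**
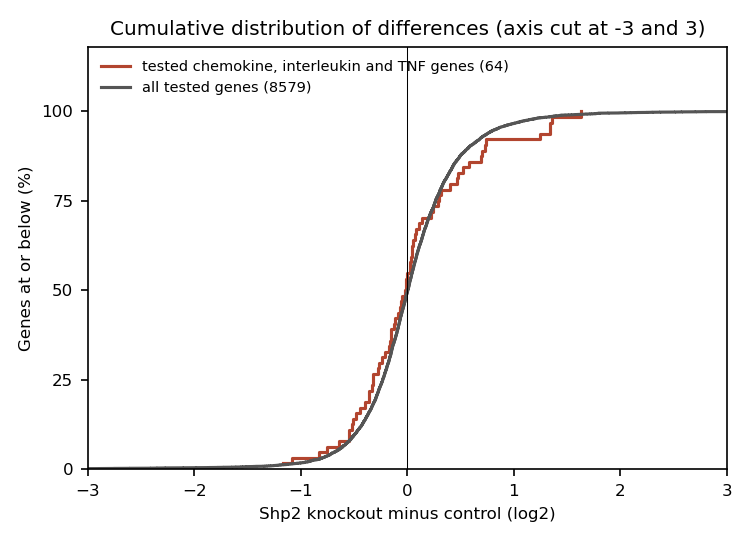
Cumulative share of genes (y axis, percent) by the difference between Shp2 knockout and control liver (x axis, log2), for the 64 tested family genes and all 8579 tested genes; the x axis is cut at −3 and 3. The medians are −0.02 and 0.00, and the family curve reaches its end at 1.63.

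Among chemokine ligands, 17 of 36 genes were tested, with a median difference of −0.15. At an unadjusted p under 0.05, 1 gene was higher and 1 lower, beside 9.4% and 6.96% of all tested genes. Ccl9, a CC chemokine that acts on myeloid cells through Ccr1, had log2 values of 11.42 and 11.66 in knockout and 12.40 and 12.19 in control liver. Each knockout array was lower than either control array (difference −0.75, SE 0.20, n = 2 per group, limma adjusted p = 0.176). Ccl4, a chemokine of activated macrophages and T cells, went the other way. Its values were 6.41 and 6.33 in knockout and 5.70 and 5.55 in control liver, where neither array was above background. A further probe was above background on no array, and its groups overlapped (5.68 and 5.50 in knockout, 5.08 and 5.80 in control liver). Knockout was thus at least 1.43-fold higher (limma adjusted p = 0.155), the brighter group's mean being set against the lowest detected signal of each dim array or the probe's own value, whichever was higher.

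Cxcl16, a membrane-bound ligand of the lymphocyte receptor Cxcr6, had values of 8.46 and 8.41 in knockout and 8.12 and 7.60 in control liver (difference 0.58, SE 0.23). Ccl5, which draws T cells and monocytes, had 7.03 and 6.43 in knockout and 7.29 and 7.26 in control liver (difference −0.54, SE 0.25). The groups did not overlap for either gene, and neither passed (limma adjusted p of 0.312 and 0.374). Ccl25, the ligand of the gut-homing receptor Ccr9, differed by 0.29 (SE 0.21) and by 0.34 (SE 0.19) on a further probe.

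Other chemokines above background on all arrays had small fitted differences. Cxcl12, the ligand of Cxcr4 that retains blood-forming and other cells in tissues, had 13.80 and 14.04 in knockout and 13.91 and 13.97 in control liver. The difference was −0.03 with a 95% interval of −0.50 to 0.45, and the other detected probes differed by −0.01 and 0.00. Ccl27a differed by −0.01 (interval −0.50 to 0.48) and by 0.02 on a further probe. Ccl27a and Ccl21a have near-identical gene copies, which the probes may not tell apart. The neutrophil chemokine Cxcl1 had 8.94 and 9.65 in knockout and 9.66 and 9.47 in control liver (difference −0.27, SE 0.28). Cxcl9 and Cxcl10, interferon-gamma-induced ligands of Cxcr3, differed by −0.15 (SE 0.34) and 0.14 (SE 0.29). For Cxcl1, Cxcl9 and Cxcl10 the groups overlapped, and the intervals still allow differences of some size, such as −0.98 to 0.44 for Cxcl1. Chemokines that organise lymphoid tissue, named after their values were seen, also overlapped between groups: Ccl19 and Ccl21a, ligands of Ccr7, differed by −0.33 and −0.17, and the B cell attractant Cxcl13 by −0.36.

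By gene order in assembly GRCm38.p6, Ccl5, Ccl9, Ccl6, Ccl3 and Ccl4 are direct neighbours, and all 5 were tested. They did not share a direction: the differences, in that order, were −0.54, −0.75, 0.29, 0.07 and 0.74. In a separate row of direct neighbours, Ccl2, Ccl7, Ccl11, Ccl12, Ccl8 and Ccl1, only Ccl11, chosen after its value was seen, was tested (difference −0.51, SE 0.36). In the row of Cxcl3, Cxcl15, Cxcl1 and Cxcl2, only Cxcl1 was. Of the 16 chemokine receptor genes, 2 were tested, each above background on 1 array per group. Ccr6 differed by −0.36 (SE 0.34) and Cxcr4 by −0.33 (SE 0.40), with overlapping groups.

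Many cytokine and chemokine genes are induced by NF-kB through a kappaB site near the gene's start, so RefSeq promoter sequences (GRCm38.p6) were searched for the kappaB consensus. It was sought on both strands within the 250 bases before the start, as the only motif searched. A match was found for 17 of the 124 family genes with a promoter in the table (13.7%), against 4.46% of all 27025 genes there. It was found for 10 of 48 tested genes (20.8%) and 7 of 76 untested genes (9.21%). A match is a description of letters and not evidence of binding. The 100 bases before the start are shown for 4 tested genes with a match, Ccl9 as the 1 of the 10 at an unadjusted p under 0.05, Il19 as a gene above background only in knockout, and Cxcl1 and Il6 as textbook NF-kB targets. Capitals mark the matched bases, and overlapping matches are merged.
Ccl9 (chr11:83578637-83578736, minus strand): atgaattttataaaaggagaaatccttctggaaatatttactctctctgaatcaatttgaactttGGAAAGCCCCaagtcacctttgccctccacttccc
Il19 (chr1:130940116-130940215, minus strand): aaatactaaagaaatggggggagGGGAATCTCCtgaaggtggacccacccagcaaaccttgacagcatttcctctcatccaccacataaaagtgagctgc
Cxcl1 (chr5:90891145-90891244, plus strand): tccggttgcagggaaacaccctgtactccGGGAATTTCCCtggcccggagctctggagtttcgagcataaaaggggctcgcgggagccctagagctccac
Il6 (chr5:30013014-30013113, plus strand): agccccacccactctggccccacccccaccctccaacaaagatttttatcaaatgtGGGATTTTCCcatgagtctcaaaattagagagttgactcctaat

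The 10 tested genes with a match were Ccl9, Ccr6, Cxcl1, Cxcl10, Il16, Il19, Il1r1, Il6, Tnfaip3 and Tnfrsf8. Their median difference was −0.14, against −0.01 for tested genes whose promoter held no match. Of the 4 genes shown, Ccl9 differed by −0.75, Cxcl1 by −0.27 and Il6 by −0.12. Il19 was above background in knockout alone, where its mean was at least 1.02-fold higher, with an interval of the difference that included 0.

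Of 36 interleukin and other Il genes that are not receptors, 11 were tested, with a median difference of −0.05. Il1b, the fever-inducing product of activated macrophages, had log2 values of 6.24 and 6.29 in knockout and 5.72 and 5.40 in control liver. It was above background on both knockout arrays and on neither control array. The knockout mean was at least 1.33-fold above the control mean (limma adjusted p = 0.187), and the lowest difference among the alternative processings was 0.19. Il19, a member of the IL-10 family, showed the same pattern of detection, with 5.85 and 5.93 in knockout and 5.32 and 5.66 in control liver. It was at least 1.02-fold higher in knockout. Il13, a signal of type-2 immunity, differed by 0.47 (SE 0.23) and was above background on 1 control array. Il34, a ligand of the macrophage growth receptor Csf1r, differed by −0.83 (SE 0.35) with 1 knockout array above background. None of these passed, with limma adjusted p between 0.187 and 0.416.

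Il1rn, the natural antagonist of the IL-1 receptor, had 6.71 and 5.98 in knockout and 6.71 and 6.86 in control liver (difference −0.44, SE 0.28). Il18, a cytokine processed by caspase-1, had 8.85 and 9.71 in knockout and 9.48 and 9.04 in control liver (difference 0.02, SE 0.34). Knockout arrays lay on either side of the controls, and the interval of −0.84 to 0.88 leaves both directions possible. Il15, which maintains natural killer cells, differed by 0.22 (SE 0.30) on its main probe and by −0.19 and 0.04 on further probes. Il6, above background on 1 array of each group, differed by −0.12 (SE 0.40).

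Interleukin receptors made up 5 of the 10 genes at an unadjusted p under 0.05, out of 19 tested genes (26.3%, against 16.4% of all tested genes, a difference that was not tested). Of these 3 were higher and 2 lower, and the median over the 19 was −0.01. Il17rb, which binds IL-25 together with Il17ra, had 9.60 and 9.32 in knockout and 8.34 and 7.85 in control liver. The difference was 1.36 (SE 0.24, 2.57-fold higher, limma adjusted p = 0.101). The partner chain and a related chain were also measured. Il17ra had 6.22 and 6.38 in knockout and 6.69 and 6.45 in control liver (difference −0.27, SE 0.19), and Il17rc differed by −0.02 (SE 0.19), with 0.05 and 0.07 on further probes.

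Il10rb, the shared chain of the receptors for IL-10, IL-22 and interferon lambda, was measured close to background. Its values were 7.81 and 7.41 in knockout and 6.35 and 5.61 in control liver, where 1 of the 2 arrays was above background. The difference was 1.63 (SE 0.31, 3.09-fold higher, limma adjusted p = 0.114). The size rests on the background correction, since without it the difference was 0.58. The IL-10-specific chain Il10ra, named after its value was seen, had 7.36 and 6.36 in knockout and 6.79 and 6.95 in control liver, so that the groups overlapped (difference −0.01, SE 0.35). Il20ra, a receptor chain for IL-19, IL-20 and IL-24, was also named after its value was seen. It had 6.33 and 6.55 in knockout and 5.82 and 6.02 in control liver (difference 0.52, SE 0.20, limma adjusted p = 0.289).

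Chains lower in knockout by the unadjusted test were Il13ra1 and Il6ra. Il13ra1, which forms the receptor for IL-13 with the IL-4 receptor chain, had 8.31 and 8.79 in knockout and 9.63 and 9.65 in control liver. The difference was −1.09 (SE 0.23, 2.13-fold lower, limma adjusted p = 0.13). Il6ra, the IL-6-binding chain through which IL-6 induces acute phase proteins in hepatocytes, had 7.43 and 8.15 in knockout and 9.15 and 8.77 in control liver. The difference was −1.17 (SE 0.30, 2.25-fold lower, limma adjusted p = 0.169), and −0.71 without background correction. Its signalling partner Il6st (gp130) had 8.89 and 8.73 in knockout and 9.06 and 8.40 in control liver, with overlapping groups and a difference of 0.08 (interval −0.60 to 0.76).

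For the IL-1 receptor, Il1r1, the ligand-binding chain, had 6.05 and 5.36 in knockout, with 1 array above background, and 6.42 and 6.28 in control liver (difference −0.65, SE 0.28). Its co-receptor chain Il1rap had 11.55 and 12.35 in knockout and 12.48 and 12.50 in control liver (difference −0.54, SE 0.30). Of the 5 probes of Il1rap above background, 4 were so on all arrays and differed by −0.54 to −0.37; the remaining probe, above background on 1 array per group, differed by −0.06. Neither gene passed (limma adjusted p of 0.335 and 0.444). Il15ra, which presents IL-15 to neighbouring cells, differed by 0.11, 0.16 and 0.36 on its 3 probes above background, each with overlapping groups. Further receptor genes, also named after their values were seen, had overlapping groups: Il27ra differed by −0.40, Il7r, the lymphocyte survival receptor, by −0.08, and Il18bp, a soluble inhibitor of IL-18, by 0.05.

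**Figure D3:**
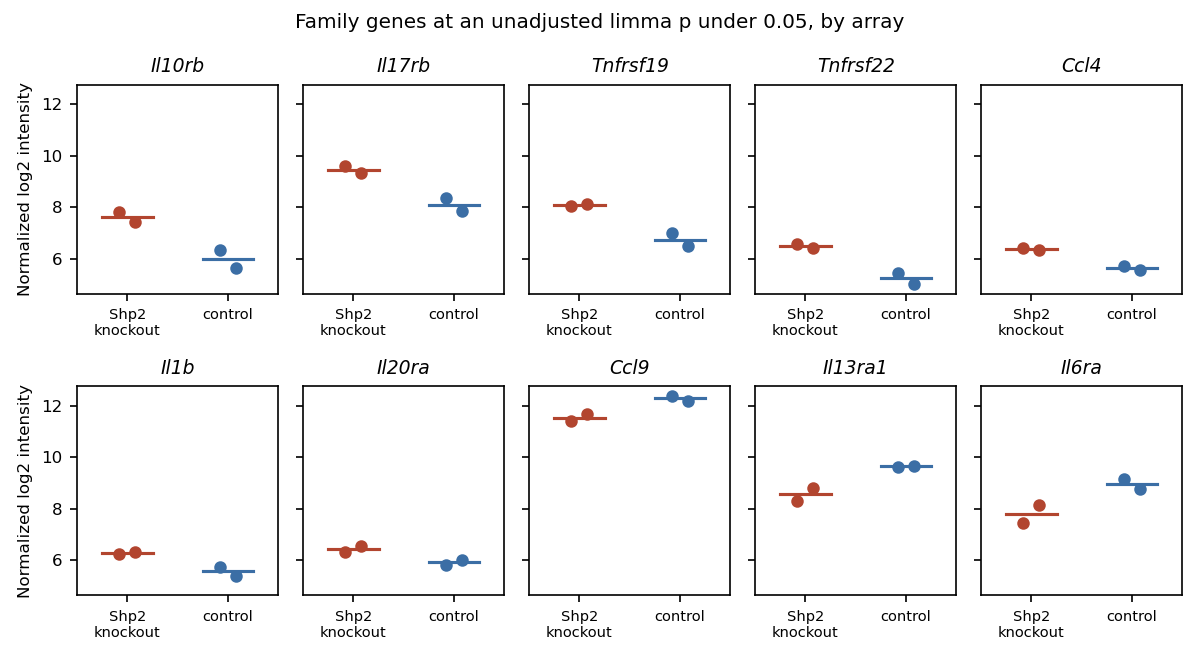
Normalized log2 intensity (y axis) of each array for the 10 family genes at an unadjusted limma p under 0.05. Shp2 knockout liver samples are on the left and control samples on the right of each panel. Points are single arrays and lines are group means (n = 2). In each of the 10 panels the groups do not overlap; levels of different genes come from different probes and are not comparable.

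Of 12 TNF ligands, only Tnfsf13b, the B cell survival factor BAFF, was tested. It had 6.31 and 6.31 in knockout and 6.87 and 5.87 in control liver, a difference of −0.06 (SE 0.35), with 0.03 on a further probe. Of 20 TNF receptor genes 9 were tested, with a median difference of 0.31. At an unadjusted p under 0.05, 2 were higher and 0 lower, beside 9.4% and 6.96% of all tested genes. Tnfrsf19, the receptor TROY, known in other tissues as a target of Wnt signalling, had 8.05 and 8.10 in knockout and 6.98 and 6.49 in control liver. The difference was 1.34 (SE 0.23, 2.53-fold higher, limma adjusted p = 0.0949), and 0.60 without background correction. Tnfrsf22, a mouse decoy receptor for the death ligand TRAIL, had 6.55 and 6.40 in knockout and 5.46 and 5.01 in control liver. On this probe neither control array was above background, so it passed the filter only through the knockout arrays and had to be higher. The knockout mean was at least 1.54-fold above the control mean (limma adjusted p = 0.102). The lowest difference among the alternative processings was 0.36. The other 2 probes of Tnfrsf22 could not be tested: 1 was above background on 1 control array and on neither knockout array, and 1 on no array. Its gene neighbours Tnfrsf26 and Tnfrsf23 were above background on no array.

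Tnfrsf11b encodes osteoprotegerin, a soluble decoy for the ligand RANKL. It had 7.64 and 8.36 in knockout and 7.46 and 5.86 in control liver, and 1 control array was above background. Although the fitted difference was 1.34, the controls lay far apart and the SE was 0.56 (limma adjusted p = 0.327). Tnfrsf8, the lymphocyte activation marker CD30, differed by 0.69 (SE 0.27), with 1 control array above background. Tnfrsf21, the death receptor DR6, differed by 0.31 (SE 0.19). The main TNF receptor Tnfrsf1a had 7.16 and 7.49 in knockout and 7.69 and 7.60 in control liver (difference −0.32, SE 0.20). Its further probes differed by −0.12 and −0.24. Tnfrsf12a, the receptor Fn14 of the ligand TWEAK, had 7.29 and 7.01 in knockout and 7.43 and 7.90 in control liver (difference −0.52, SE 0.24). Tnfrsf4, the T cell co-stimulator OX40, differed by −0.48 (SE 0.24). Both were named after their values were seen, and in each the knockout arrays lay below the controls.

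Among 8 TNF-induced and other Tnf genes, 5 were tested and 0 reached an unadjusted p under 0.05, beside 16.4% of all tested genes. Tnfaip2 had 9.28 and 8.99 in knockout and 7.94 and 8.87 in control liver (difference 0.73, SE 0.34), and its further probes differed by 0.53 and −0.13, so the probes did not share a direction. Tnfaip1, an adaptor for protein ubiquitination, differed by 0.25 (SE 0.18) and Tnfaip8 by 0.47 (SE 0.37). Tnfaip3, the enzyme A20 that shuts off NF-kB signalling and is itself an NF-kB target, differed by −0.07 (SE 0.22) and was above background on 1 array per group.

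**Figure D4:**
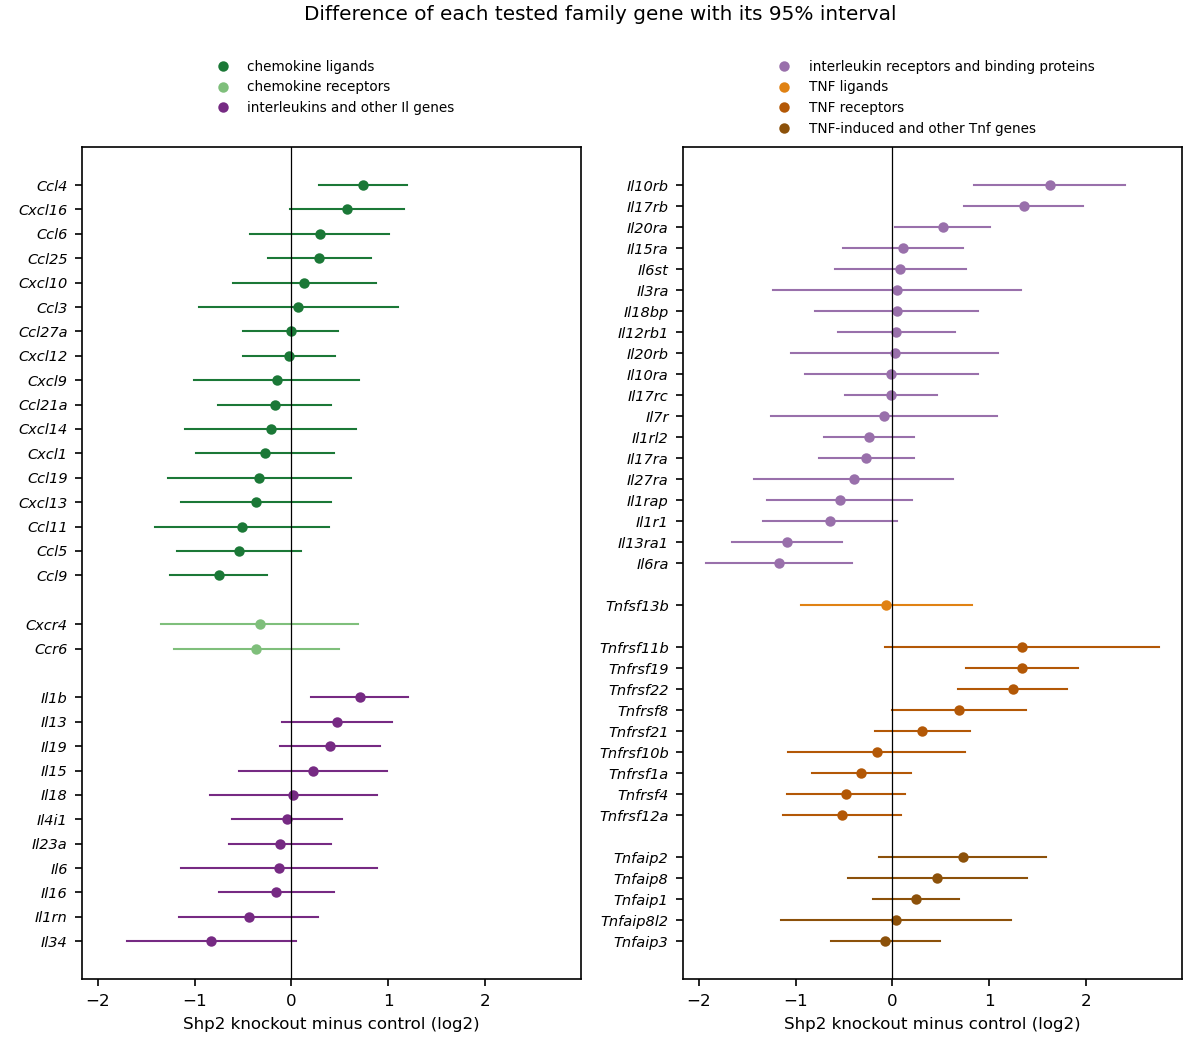
Difference between Shp2 knockout and control liver (x axis, log2) for each of the 64 tested family genes, with the model's 95% interval as a line; colours mark the 7 groups of genes. Intervals that exclude 0 belong to the 10 genes at an unadjusted p under 0.05, among them Il10rb at 1.63, a value that was 0.58 without background correction.

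Genes outside the name rule were described from 3 lists, and 0 of their members were called. Each list gene was represented by its probe of highest mean. Values of further probes are not given, although Tnip1, Ikbkg and Ifnar2 had others above background in control liver. The counts of list members at an unadjusted p under 0.05 stand beside 9.4% of all tested genes higher and 6.96% lower. In the list of NF-kB and TNF receptor signalling, 24 of 31 genes on the arrays were tested, 3 were higher and 1 lower at an unadjusted p under 0.05, and the median was 0.02. Tnip1, a partner of A20, had 9.70 and 9.27 in knockout and 8.39 and 8.23 in control liver (difference 1.18, SE 0.22, limma adjusted p = 0.112). Relb, an NF-kB subunit, was not above background in control liver and was at least 1.08-fold higher; it is 1 of the 3 and passed the filter only through the knockout arrays. Ikbkg, the regulatory subunit of the IkB kinase, differed by 0.75 (SE 0.20). Nfkbia, the inhibitor IkB-alpha and an NF-kB target, differed the other way, by −0.76 (SE 0.26), and was named after its value was seen.

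In the list of IL-1 and Toll-like receptor signalling, 15 of 19 genes were tested, with 5 higher and 0 lower at an unadjusted p under 0.05 and a median of 0.05. Irak3, an inhibitor of this pathway found in macrophages, had 6.60 and 6.99 in knockout and 5.21 and 4.77 in control liver, where it was not above background. It was at least 1.92-fold higher (limma adjusted p = 0.059), and as 1 of the 5 it passed the filter only through the knockout arrays. Tlr2, a receptor for bacterial lipoproteins, differed by 0.86 (SE 0.18, limma adjusted p = 0.135) and the kinase gene Irak1 by 0.91 (SE 0.21, limma adjusted p = 0.147). In the list of other chemokines, cytokines and receptors, 22 of 45 genes were tested, 6 were higher and 1 lower, and the median was 0.26; Cx3cl1, 1 of the 6, passed the filter only through the knockout arrays. Ackr2, a scavenger of inflammatory chemokines, differed by 1.20 (SE 0.32), the interferon receptor chain Ifnar2 by 0.87 (SE 0.24) and Csf3r, the receptor of the neutrophil growth factor, by 0.59 (SE 0.18).

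Markers of other cell types were measured on the same arrays. Of 11 Kupffer cell and macrophage markers on the arrays 10 were tested, with a median difference of 0.73 and 8 above 0, as were 4338 of all 8579 tested genes. The 2 below 0 were Cd163 (difference −0.81) and Marco (−0.18), both with overlapping groups. The summed normalized intensity of the 10 markers was 13499 and 12194 units in knockout and 10049 and 5660 in control liver. Cd5l was not above background. Of 11 monocyte and neutrophil markers 5 were tested, and 3 of these (S100a8, S100a9 and Ly6c1) passed the filter only through the knockout arrays, so that they had to differ. S100a8 was called higher, at least 2.97-fold (limma adjusted p = 0.0227). The other tested markers, Csf3r and Elane, were above background on all arrays and differed by 0.59 and −0.22, with overlapping groups for Elane. The summed intensity of the 5, which includes the 3 that had to differ, was 531 and 525 in knockout and 242 and 258 in control liver. Ngp, Camp, Ltf, Mpo, Retnlg and Chil3 were not above background. Of 15 T cell and natural killer cell markers 5 were tested, with sums of 1507 and 994 in knockout and 1066 and 1052 in control liver; Cd3d, Cd3e, Cd4 and Cd8a were among those not above background. Of 6 B cell markers only Cd79b was tested, at least 1.64-fold higher in knockout, through whose arrays alone it passed the filter. The median was 0.42 for 7 stellate and fibroblast markers, −0.08 for 10 endothelial markers and −0.07 for 9 hepatocyte markers. The stellate and fibroblast sums were 19188 and 19521 in knockout and 16461 and 11255 in control liver. For the endothelial markers the sums were 10427 and 12813 in knockout and 12968 and 8296 in control liver. In both, and in the Kupffer cell and macrophage sums, control replicate 2 was the lowest array. Siglech, the tested one of 7 dendritic cell markers, differed by −0.64, and Sox9, the tested one of 4 cholangiocyte markers, by −0.11. The part of these cells in the differences of Il1b, Ccl4, Il10rb and the other family genes was not tested.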

How the data were processed

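Total RNA of liver was measured as biotin-labelled cRNA, per the labels' protocols. The authors deposited a scanner table with intensity on a linear scale and a detection p-value per probe and array, per the file headers. A further deposited table of processed intensity, whose method is not given in the sources used here, served as an alternative. Rows without a probe identifier (4) were left out. Background correction, an offset of 16, quantile normalization and log2 were applied by limma's neqc function (version 3.58.1; R version 4.3.3). Probes with a detection p under 0.05 on at least 2 arrays were tested, each gene by its probe of highest mean. Groups came from the labels and were compared by two-sided lmFit and eBayes tests, and p-values were adjusted over 9311 rows by the Benjamini-Hochberg method (2 residual and 3.375 prior degrees of freedom). The fit was tested on simulated data. An exact permutation test of 2 against 2 arrays cannot give a p below 0.333 and was not used. All 230 family probes matched the reference gene table by gene number. The number of arrays limits the precision.

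The members and lists were chosen with earlier results of these data known. The genes named were the called ones, the 4 of smallest p and the 2 of highest mean in each of 7 groups of genes, those with several probes above background, those above background in 1 group only, a fixed set of well-known members, and the 3 of smallest p in each of 3 pathway lists; others are marked as named after their values were seen. Alternatives changed the background correction, normalization, offset, probe filter, choice of probe, variance model and arrays.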

Additional observations from a re-analysis of the deposited data

How the results depend on the processing

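Family genes called numbered 0 and all genes called 68 in the fit described. Without background correction they numbered 4 (Ccl9, Il13ra1, Il17rb and Tnfrsf19) and 292, with an offset of 50 they numbered 2 (Il17rb and Tnfrsf19) and 144, and with an intensity trend in eBayes 5 (the first 4 and Il10rb) and 309. There were 16 called genes from the deposited processed values and 41 with every probe on its own, with 0 family genes in each. The cause was not tested. With no filter on dim probes 164 family genes were tested and 19 (11.6%) had an unadjusted p under 0.05, against 11.2% of all genes. The median family difference was 0.0757 with median centring, where that of all genes was 0.09. Leaving out an array gave 0 called family genes, 9 to 14 at an unadjusted p under 0.05 and a family median of −0.0426 to 0.0249; the group left with 1 array is assumed to vary like the other. All genes called then numbered 0 without either knockout array and 25 without either control array. Among the genes named, Ccr6 ranged from −0.7815 to 0.0569 when an array was left out, with the highest value without knockout replicate 2. Tnfaip8 ranged from −0.0137 to 0.9497, with the lowest without control replicate 2. Several other named genes also changed sign, among them Cxcl1 (−0.6271 to 0.0848), Il18 (−0.406 to 0.4506) and Il6 (−0.6236 to 0.3774). Family probes above background numbered 58 on all 4 arrays, 106 on at least 1, and 70 at a detection p under 0.01. Signal near background limits the dim genes, whose fold changes depend on the offset. No paired analysis was possible because the control labels carry no replicate number.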
